A study of Mus musculus with 9 samples.

Results

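The SR and hnRNP splicing factor genes were taken as every gene whose symbol starts with Srsf and a digit, or with Hnrnp. The rule found 32 genes, 11 Srsf and 21 Hnrnp, of 23201 genes in the tables. They were measured through 70 of 30978 RefSeq transcripts, and each gene was represented by its transcript with the highest mean level. All 32 passed the filter of a mean of at least 0.5 RPKM, at which 12159 genes were tested. The unit, RPKM, divides reads by transcript length and by library size, so levels can be compared between genes.

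The study asked what losing Sfpq changes in the embryonic cerebral cortex. Sfpq is a DBHS family protein that binds RNA in the nucleus. There were 9 libraries of mouse cortex at E13.5, in 3 groups: 3 from embryos with both copies of Sfpq mutant (homozygous), 3 from embryos with 1 mutant copy (heterozygous) and 3 from control embryos. All groups carry the same strain label, C57BL/6+C57BL/6J+CBA, and the labels describe the cells as neuronal stem cells and neurons. The sources used here do not say how the mutant allele was made, which part of Sfpq it removes or in which cells. Ribosomal RNA was depleted and total RNA was sequenced on strand-keeping libraries, so both polyadenylated and other transcripts were covered. Each library is taken as 1 embryo, as the series' design text counts embryos.

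SR proteins bind exonic enhancers through RNA recognition motifs and recruit the spliceosome through a domain rich in arginine and serine (the RS domain), whose phosphorylation sets where they sit and what they bind. hnRNP proteins coat nascent transcripts, and many of them silence the splice sites that SR proteins favour. Several genes of both families also splice their own transcripts into forms that nonsense-mediated decay removes, which holds their level within a narrow range. In the developing cortex both families shape the exon choices that differ between dividing progenitors and new neurons.

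Depth, estimated from the steps between low values, was 169.5 to 204.5 M reads per library (M, 1000000 reads). Sfpq was at 26.1, 28.6 and 27.6 RPKM in homozygous, at 185, 163 and 169 RPKM in heterozygous and at 184, 202 and 218 RPKM in control cortex, with every homozygous library below the other 6 and overlap between heterozygous and control libraries. Its leading transcript in these tables is a non-coding RefSeq form that shares exons with the coding one. As a check of the labelled cells, 8 markers of radial glia had a summed level of 1779.9 to 1869.8 RPKM in homozygous, 1819.6 to 2088 in heterozygous and 1885 to 2056 in control cortex, and 8 of cortical neurons 526 to 642 RPKM in homozygous, 653 to 745 in heterozygous and 636 to 737 in control cortex. The 4 markers of the oligodendrocyte lineage summed to 1.70 to 2.22 RPKM in homozygous, 1.61 to 1.87 in heterozygous and 1.96 to 2.29 in control cortex. Of these only Mog was listed at 0 throughout. The 6 erythroid markers summed to 1454 to 1616 RPKM in homozygous, 1393 to 2179 in heterozygous and 1737 to 1950 in control cortex. Read from sex-linked genes, the homozygous embryos were 1 female and 2 males, the heterozygous embryos 3 males and the control embryos 2 females and 1 male. In homozygous against control cortex, 4170 of 12159 genes were called (limma, Benjamini-Hochberg adjusted p below 0.05), 1747 higher and 2423 lower. After quantile normalization the split was 2568 higher and 2167 lower.

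Levels spanned 3 orders of magnitude within the families. Hnrnpk, which binds cytosine-rich RNA, was the most abundant member at 546 ± 14 RPKM in homozygous, 573 ± 10.1 in heterozygous and 574 ± 10.9 in control cortex (SD, n = 3 each). Below it in control cortex came Hnrnph1, Hnrnpab, Hnrnpa1 and Hnrnpu, between 462 and 505 RPKM on average, and neighbours in this run of 4 overlapped between libraries. The most abundant SR genes were Srsf3, at 285 ± 7.45 RPKM in control cortex, and Srsf1, at 279 ± 6.48 RPKM, whose control libraries also overlapped. A mean of at least 100 RPKM in control cortex was reached by 16 of the 32 members. At the other end, Srsf12 was at 0.490 ± 0.0515 RPKM in homozygous, 0.568 ± 0.0989 in heterozygous and 0.508 ± 0.0594 in control cortex, and Hnrnpa1l2-ps2, listed under a pseudogene symbol and close in sequence to Hnrnpa1, stood at 1.46 ± 0.0319 RPKM in homozygous, 1.55 ± 0.328 in heterozygous and 1.42 ± 0.171 in control cortex. How reads that match several copies were counted is not given, so these last values and that of Hnrnpa1 itself are uncertain.

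**Figure D1:**
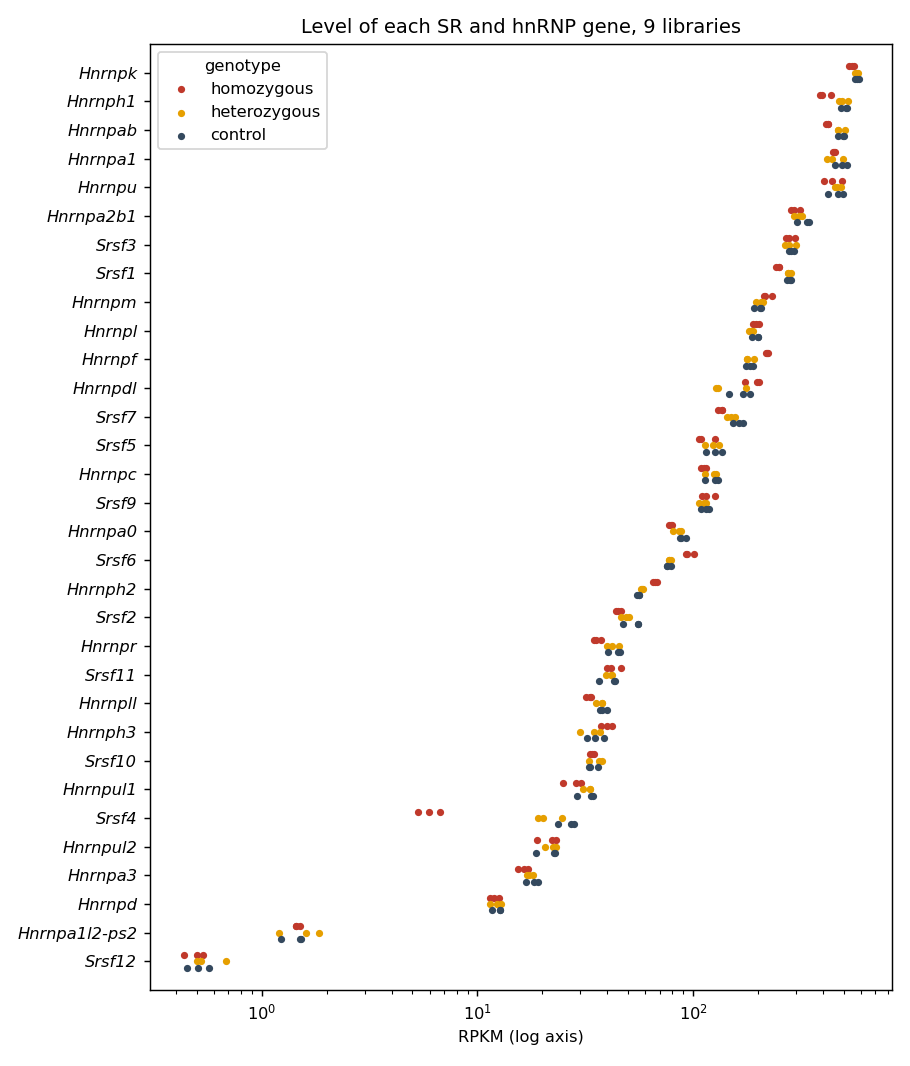
RPKM (log axis) of each of the 32 SR and hnRNP genes in 9 libraries, genes ordered by their control mean, with 1 point per library and colour by genotype. The levels run from Hnrnpk, at 574 RPKM in control cortex, to Srsf12, at 0.508 RPKM, and the homozygous points of Srsf4 lie apart from the others.

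The first comparison asked which members changed where both copies of Sfpq were mutant. In homozygous against control cortex 12 of 32 members were called, 3 higher and 9 lower, against 34.3% of all genes tested (14.4% higher and 19.9% lower). The share of members called was thus near that of all genes. One gene, Srsf4, fell by 2.04 on the log2 scale. The other 11 called members changed by 0.17 to 0.32 on the log2 scale, which is a rise of 19.6% to 24.7% or a fall of 11.3% to 19.6% of the mean level. Such small called changes, under 0.5 on the log2 scale, were made by 23% of all genes tested, and changes of at least 2-fold by 2.92%. In 15 members the homozygous and control libraries did not overlap, 4 with homozygous higher and 11 with homozygous lower, against 46.2% of all genes (20.6% higher and 25.6% lower). The median log2 change was -0.07 over the 32 members, -0.03 over the 11 Srsf genes, -0.07 over the 21 Hnrnp genes and -0.01 over all genes, and after quantile normalization it was 0.00 over the members and 0.03 over all genes. RNA was taken from bulk tissue, where fewer cells that express a gene and less of its RNA per cell cannot be told apart.

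**Figure D2:**
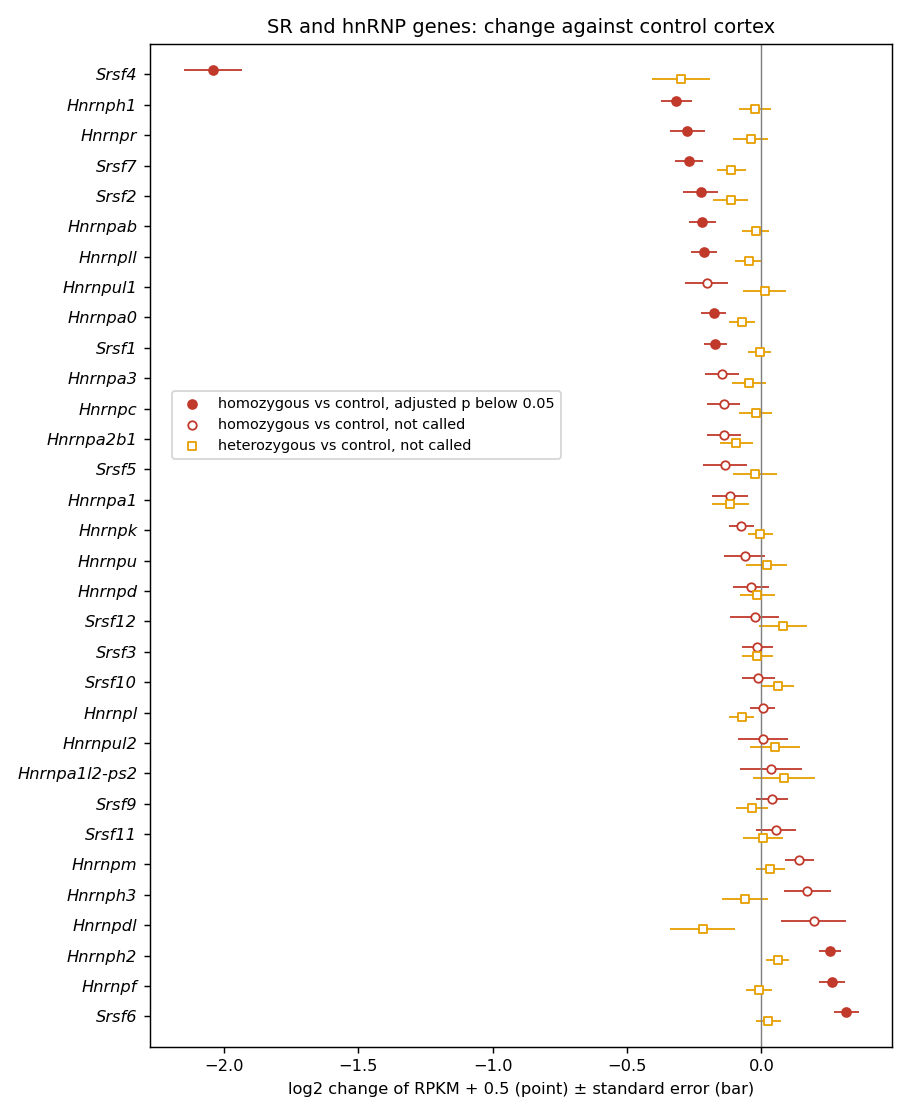
Log2 change of RPKM + 0.5 of each member (points) with its standard error (bars), for homozygous against control (circles) and heterozygous against control (squares) cortex, filled where the adjusted p is below 0.05. Srsf4 stands at -2.04 in homozygous cortex, the other called members lie between -0.32 and 0.32, and no heterozygous point is filled.

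Srsf4 encodes SRp75, an SR protein with a long RS domain. It had 5.30, 5.99 and 6.73 RPKM in homozygous libraries, 24.8, 19.1 and 20.1 RPKM in heterozygous libraries and 23.7, 27.1 and 28 RPKM in control libraries. Every homozygous library lay far below every library of the other groups, while the heterozygous and control libraries overlapped. The homozygous mean of 6.01 ± 0.715 RPKM was 22.9% of that in control cortex, 26.3 ± 2.29 RPKM (SD, n = 3 each), a log2 change of -2.04 ± 0.11 (SE; limma adjusted p = 1.67e-07). It ranked 21 from the lowest of the 12159 log2 changes, and its exact permutation p over the RPKM values (two-sided) was 0.1, which is as low as 3 libraries against 3 can go. Leaving out each library in turn kept the log2 change between -2.12 and -1.96.

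Within the SR family the fall of Srsf4 shifted its place. Srsf4 made up 0.536% ± 0.0619 of the summed level of the 11 Srsf genes in homozygous, 1.82% ± 0.269 in heterozygous and 2.19% ± 0.195 in control cortex (SD, n = 3 each). Among all 32 members it ranked 30 by mean level in homozygous and 27 in control cortex. The summed level of the 11 genes was 1119 ± 6.50 RPKM in homozygous, 1171 ± 21.5 in heterozygous and 1198 ± 9.96 in control cortex. Srsf4 is on chromosome 4, as is Sfpq, and 45 tested genes lie between them in the GRCm38 annotation. Of these 45, 5 were called higher and 5 lower in homozygous against control cortex (22.2%). Among all genes tested 34.3% were called, 14.4% higher and 19.9% lower. The median log2 change was 0.00 over the 45 and -0.01 over all genes. The 3 tested genes on either side of Srsf4 had log2 changes of -0.62 to 0.20. The lowest of these was called lower and the highest called higher (limma adjusted p = 0.00127 and 0.0104). Any part of the chromosomal position in the fall of Srsf4 was not tested.

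Among the other SR genes that bind exonic enhancers, the changes were small and went both ways. Srsf6, which encodes SRp55, had 93.4, 92.6 and 101 RPKM in homozygous, 79.1, 77.3 and 77.7 RPKM in heterozygous and 75.6, 75.7 and 78.6 RPKM in control libraries. All 3 homozygous libraries lay above the other 6, and the log2 change against control was 0.32 ± 0.05 (SE; limma adjusted p = 0.000352). The ratio of Srsf4 to Srsf6, both of the SR proteins with 2 RNA recognition motifs, was 0.0628 ± 0.00533 in homozygous, 0.273 ± 0.0352 in heterozygous and 0.342 ± 0.0257 in control cortex (SD, n = 3 each).

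Srsf7, an SR protein with a zinc knuckle that also serves in mRNA export, had 136, 137 and 131 RPKM in homozygous, 144, 156 and 149.9 RPKM in heterozygous and 171, 163 and 153 RPKM in control libraries. The homozygous libraries were below all the others, by -0.27 ± 0.05 (SE) against control on the log2 scale (limma adjusted p = 0.00235). Srsf1, the founding member of the family, fell by 0.17 on the log2 scale, to 248 ± 4.18 RPKM in homozygous cortex against 279 ± 6.48 RPKM in control cortex (SD, n = 3 each; limma adjusted p = 0.00996). Srsf2 (SC35), which is found in nuclear speckles, was at 44.8, 46.3 and 43.8 RPKM in homozygous and 55.4, 55.7 and 47.3 RPKM in control libraries. Its groups did not overlap and the log2 change was -0.23 ± 0.07 (SE; limma adjusted p = 0.0206), a call that was lost under 6 alternatives, among them the omission of homozygous replicate 1 or 3 or of control replicate 1 or 2 (adjusted p of 0.0548 to 0.0914).

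The remaining 6 SR genes did not pass the test as genes. Srsf3, the smallest SR protein, was at 282 ± 13.4 RPKM in homozygous and 285 ± 7.45 RPKM in control cortex (SD, n = 3 each), and the 95% interval of its log2 change ran from -0.14 to 0.11. Srsf5, Srsf9, Srsf11 and Srsf12 had log2 changes of -0.13, 0.04, 0.05 and -0.03, and in each of them the homozygous and control libraries overlapped. Srsf10 had a log2 change of -0.01 when read from its leading transcript, but its transcript forms moved apart.

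The hnRNP H and F proteins bind runs of guanines, and 3 of their 4 genes were called, 1 lower and 2 higher. Hnrnph1 had 386, 435 and 397 RPKM in homozygous, 521, 493 and 477 RPKM in heterozygous and 486, 509.8 and 519 RPKM in control libraries. All 3 homozygous libraries were below the other 6, and the log2 change against control was -0.32 ± 0.06 (SE; limma adjusted p = 0.00173). Its X-linked paralog Hnrnph2 was higher, with 66.4, 65.1 and 67.7 RPKM in homozygous, 58.6, 57.1 and 58.2 RPKM in heterozygous and 54.7, 56.0 and 55.9 RPKM in control libraries. The 3 groups did not overlap, and the log2 change was 0.26 ± 0.04 (SE; limma adjusted p = 0.000672) for homozygous against control and 0.25 with the sex of the embryo in the model.

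Hnrnpf had 222, 219 and 217 RPKM in homozygous, 177, 177 and 192 RPKM in heterozygous and 176, 184 and 189 RPKM in control libraries. The homozygous libraries lay above all others, with a log2 change of 0.26 ± 0.05 (SE; limma adjusted p = 0.00161) against control. Hnrnph3, at 39.8 ± 2.18 RPKM in homozygous and 35.3 ± 3.14 RPKM in control cortex (SD, n = 3 each), overlapped between those groups and was not called (adjusted p = 0.154). Thus the most abundant of the 4 genes by RPKM fell, and the less abundant Hnrnpf and Hnrnph2 rose.

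The other hnRNP genes that fell in homozygous against control cortex were Hnrnpr, Hnrnpab, Hnrnpll and Hnrnpa0. Hnrnpr, a relative of Syncrip that binds mRNA in motor axons, was at 34.8, 35.6 and 37.4 RPKM in homozygous, 45.4, 40.0 and 41.9 RPKM in heterozygous and 40.1, 46.0 and 44.8 RPKM in control libraries. Its homozygous libraries were below all the others (log2 change -0.28 ± 0.06 SE against control; limma adjusted p = 0.00692). Hnrnpab, of the group with paired RNA recognition motifs, had 413, 423 and 424 RPKM in homozygous and 468, 498 and 501 RPKM in control libraries. The groups did not overlap and the log2 change was -0.22 ± 0.05 (SE; limma adjusted p = 0.00646), but after quantile normalization it was -0.09 with an adjusted p of 0.279.

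Hnrnpll, a paralog of Hnrnpl known for exon skipping of CD45 in T cells, was at 32.9 ± 0.847 RPKM in homozygous and 38.2 ± 1.32 RPKM in control cortex (SD, n = 3 each; log2 change -0.21 ± 0.05 SE, limma adjusted p = 0.00602). Hnrnpl itself, which binds CA repeats, was at 196 ± 5.72 RPKM in homozygous and 196 ± 6.36 RPKM in control cortex, with a 95% interval of the log2 change from -0.10 to 0.11. Hnrnpa0 was at 78.7 ± 1.20 RPKM in homozygous and 89.1 ± 3.06 RPKM in control cortex (log2 change -0.18 ± 0.05 SE, limma adjusted p = 0.0136), and without control replicate 2 its adjusted p was 0.0692. The splicing silencers Hnrnpa1 and Hnrnpa2b1 had log2 changes of -0.12 and -0.14 and Hnrnpa3 of -0.15, none of which passed (adjusted p of 0.216, 0.109 and 0.0993). Without control replicate 1, Hnrnpa2b1 and Hnrnpa3 passed (limma adjusted p = 0.0299 and 0.0422). In Hnrnpa1, Hnrnpk and Hnrnpm the homozygous and control libraries did not overlap, at adjusted p of 0.216, 0.244 and 0.0631.

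The rest of the Hnrnp genes did not pass the test in homozygous against control cortex either. Hnrnpu, also known as SAF-A, a protein of the nuclear scaffold, was at 403, 488 and 439 RPKM in homozygous and 423, 496 and 468 RPKM in control libraries, which overlapped (log2 change -0.06 ± 0.08 SE; limma adjusted p = 0.574). Its relatives Hnrnpul1 and Hnrnpul2 had log2 changes of -0.20 (adjusted p = 0.0716) and 0.01 (adjusted p = 0.974), and Hnrnpul1 passed under 4 of the alternatives (adjusted p of 0.0111 to 0.0482). Hnrnpc, which binds uridine tracts, had a log2 change of -0.14 (adjusted p = 0.103), and Hnrnpm, which binds GU-rich RNA, of 0.14. Hnrnpc passed under 2 of the alternatives (limma adjusted p of 0.0287 to 0.0352). So did Hnrnpm, after quantile normalization and when read from its longest transcript (log2 change 0.18, limma adjusted p of 0.0212 to 0.0262). Hnrnpd (AUF1), which promotes decay of AU-rich mRNAs, was at 12.01 ± 0.601 RPKM in homozygous and 12.4 ± 0.626 RPKM in control cortex (SD, n = 3 each), with a 95% interval of the log2 change from -0.18 to 0.11. Hnrnpa1l2-ps2 had a log2 change of 0.03.

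Markers of dividing cells were also lower in homozygous cortex: 5 of 7 were called, all lower, and their summed level was 494 to 591 RPKM in homozygous, 701 to 747 in heterozygous and 734 to 787 in control libraries. Of 4 markers of intermediate progenitors 3 were called lower (summed level 64.5 to 66.4 RPKM in homozygous, 108 to 122 in heterozygous and 110.1 to 129 in control libraries). Of 5 microglia markers 3 were called higher, at summed levels of 13.48 to 18.7 RPKM in homozygous, 10.7 to 13.0 in heterozygous and 10.3 to 11.4 in control libraries. Of 3 tested markers of GABAergic neurons 1 was called higher and of 6 erythroid markers 1 lower, while none of 4 endothelial, 4 meningeal and 1 tested oligodendrocyte marker was called by limma (0 of them at an unadjusted p below 0.05). Of 8 radial glia markers 1 was called higher and 2 lower, and of 8 cortical neuron markers 2 higher and 2 lower. Among all genes tested 14.4% were called higher and 19.9% lower. The part of the marker shifts in the members' changes was not tested.

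**Figure D3:**
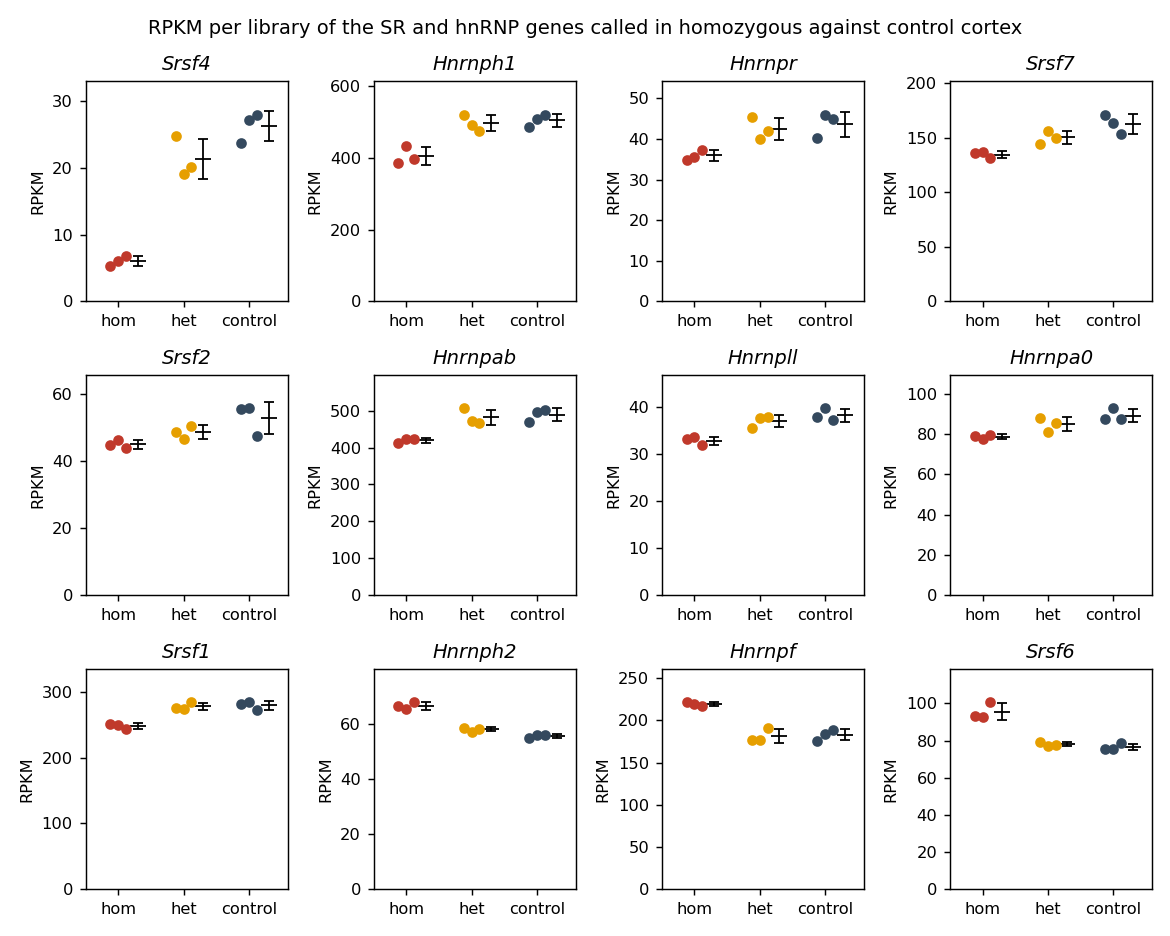
RPKM per library of the 12 members called in homozygous against control cortex, with 1 panel per gene ordered by log2 change and axes that start at 0. Coloured points are libraries, and black bars are the mean ± SD of 3. Srsf4 has 5.30 to 6.73 RPKM in the homozygous libraries against 23.7 to 28 in the control libraries, and the other panels show shifts of at most 24.7%.

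The second comparison asked whether 1 mutant copy of Sfpq was enough, and it shares its control libraries with the first. No member was called in heterozygous against control cortex, where 0 of 12159 genes were called by limma (0%) and 699 had an unadjusted p below 0.05, Srsf4 alone among the members. Srsf4 was at 21.3 ± 3.03 RPKM in heterozygous cortex, 81.2% of its 26.3 ± 2.29 RPKM in control cortex (SD, n = 3 each). Heterozygous replicate 1, at 24.8 RPKM, lay within the control range and the other two below it, and the log2 change of -0.30 ± 0.11 (SE; 95% interval -0.54 to -0.06) had a limma adjusted p of 0.752 and an exact permutation p of 0.2. Sfpq itself had a log2 change of -0.22 ± 0.07 (SE; limma adjusted p = 0.709). Hnrnph2, with 57.9 ± 0.778 RPKM in heterozygous and 55.5 ± 0.724 RPKM in control cortex, was the 1 member whose libraries did not overlap, against 11.1% of all genes (3.54% higher and 7.54% lower in heterozygous cortex), and its log2 change was 0.06 ± 0.04 (SE; limma adjusted p = 0.957). The log2 changes of the 32 members ran from -0.30 (Srsf4) to 0.08, with a median of -0.02, against -0.01 over all genes.

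The third comparison set homozygous against heterozygous cortex, and it shares its homozygous libraries with the first. Of the 32 members 11 were called, 4 higher and 7 lower, against 32.8% of all genes (14.6% higher and 18.3% lower). In 17 members the groups did not overlap, 6 with homozygous higher and 11 with homozygous lower, against 46.7% of all genes (22.5% higher and 24.2% lower). Called changes of at least 2-fold were made by 1 member, against 2.88% of all genes, and called changes under 0.5 on the log2 scale by 10 members, against 22%. Srsf4 again had the largest change of the members, at -1.74 ± 0.11 (SE; limma adjusted p = 5.79e-07). Of the called members 10 were also called against control, Srsf2 and Hnrnpa0 were called against control alone, and Hnrnpdl, which encodes a relative of AU-rich element binding Hnrnpd, against heterozygous alone. Hnrnpdl had 201, 175 and 197 RPKM in homozygous, 177, 129.8 and 128 RPKM in heterozygous and 147, 184 and 171 RPKM in control libraries. Its homozygous and heterozygous ranges touched at their ends, and the log2 change of 0.41 ± 0.12 (SE; limma adjusted p = 0.0217) lost its call when homozygous replicate 1 or 3 or heterozygous replicate 2 or 3 was left out. Without homozygous replicate 1 the members called numbered 7, and the calls of Srsf7, Hnrnpr and Hnrnpll were among those lost there (adjusted p over all settings that lost these calls, 0.0508 to 0.148).

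Of the member genes 17 had 2 or more transcripts in the tables, and 38 further transcripts were compared with the leading one of their gene as a ratio within each library. Forms of 1 gene share most exons, and hence reads, so these ratios understate any difference between forms. In homozygous against control cortex 7 of the 38 ratios, in 5 genes, were called, 4 higher and 3 lower, against 10.4% of the 5428 ratios tested in all genes (limma, Benjamini-Hochberg adjusted). A called change of at least 0.25 on the log2 scale was seen in 2 of the 38, both of Srsf10, against 1.81% of all ratios. The other 5 called ratios, in Hnrnpa3, Hnrnpc, Hnrnpm and Hnrnpr, changed by 0.02 to 0.05 on the log2 scale.

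Srsf10 encodes SRp38, an SR protein that represses splicing when it is dephosphorylated in mitosis and after heat shock. Its RefSeq forms end in different last exons, which is shown here because the ratio between them changed. The long form, NM_001080387, has 786 coding bases and the short form, NM_010178, 549, both without the stop codon. The coding parts of their last exons on chromosome 4 lie at chr4:135863729-135864023 for the long and chr4:135867126-135867183 for the short form (GRCm38, plus strand, GENCODE M21 transcripts matched to RefSeq). In the sequences, read 5′ to 3′, capitals mark codons for arginine or serine.
Srsf10 long form, coding part of the last exon: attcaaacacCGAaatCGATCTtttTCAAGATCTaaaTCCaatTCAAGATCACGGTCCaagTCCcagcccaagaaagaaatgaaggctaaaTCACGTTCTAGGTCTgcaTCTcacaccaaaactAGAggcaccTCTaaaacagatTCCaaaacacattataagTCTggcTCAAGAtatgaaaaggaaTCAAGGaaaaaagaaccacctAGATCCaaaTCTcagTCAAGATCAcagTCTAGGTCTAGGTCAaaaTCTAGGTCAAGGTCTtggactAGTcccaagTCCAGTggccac
Srsf10 short form, coding part of the last exon: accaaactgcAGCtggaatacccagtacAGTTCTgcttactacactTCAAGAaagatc
Of the 98 whole codons of the long form's last exon 46 are for arginine or serine (46.9%), and of the 19 of the short form's 5 are (26.3%). The long form's last exon holds runs of these codons that the short form's lacks.

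The short form NM_010178 had 27.6, 27.7 and 25.9 RPKM in homozygous, 22, 24.3 and 24.8 RPKM in heterozygous and 23.2, 21.8 and 20.5 RPKM in control libraries. Every homozygous library was above the other 6. The long form had 34.8, 34.0 and 33.1 RPKM in homozygous, 33.0, 36.6 and 37.8 RPKM in heterozygous and 36.4, 33.4 and 33.0 RPKM in control libraries, with full overlap. The ratio of the short to the long form was 0.796 ± 0.0167 in homozygous, 0.663 ± 0.00479 in heterozygous and 0.637 ± 0.0176 in control cortex (SD, n = 3 each). Its log2 change was 0.32 ± 0.02 (SE; limma adjusted p = 0.000162) for homozygous against control and 0.26 ± 0.02 (SE; limma adjusted p = 0.000531) for homozygous against heterozygous cortex.

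No homozygous ratio of the Srsf10 forms overlapped a ratio of another group (0.781 to 0.814 in homozygous, 0.658 to 0.667 in heterozygous and 0.619 to 0.654 in control libraries), and the exact permutation p of the ratios was 0.1 in each comparison. The heterozygous ratios also lay above all control ratios, with a log2 change of 0.06 ± 0.02 (SE) that was not called (limma adjusted p = 0.573). The second short form, NM_001284196, moved with the first, at a log2 change of 0.32 against control (limma adjusted p = 0.000122), and shares its reads. The second long form, NM_001284195, had a ratio of 0.957 ± 0.000647 in homozygous and 0.959 ± 0.00637 in control cortex (limma adjusted p = 0.803). When the transcript with the longest exonic length, a short form, stood for the gene, Srsf10 was called higher as a gene, by 0.30 on the log2 scale against control (limma adjusted p = 0.00376).

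**Figure D4:**
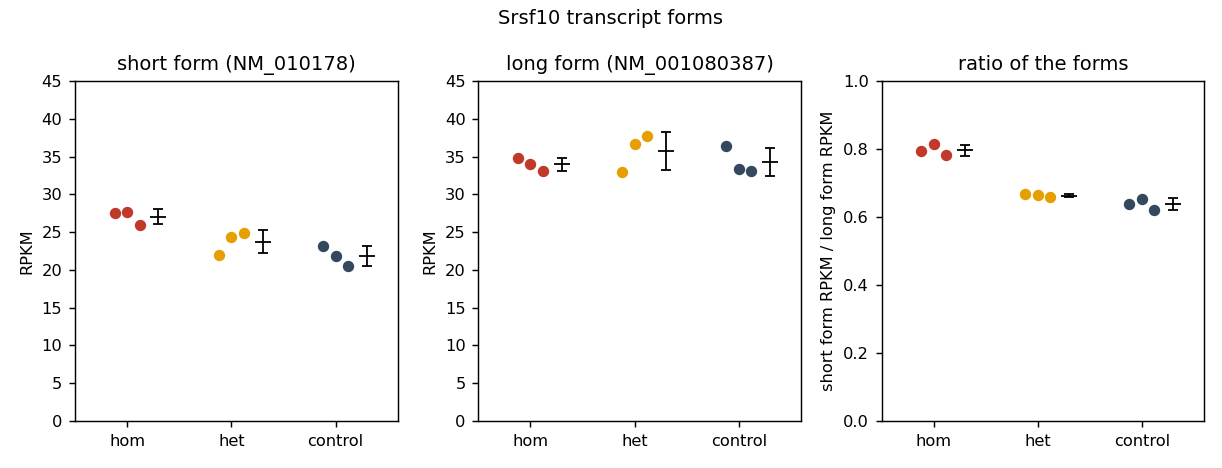
RPKM per library of the short (left) and the long (middle) form of Srsf10 and the ratio of short to long (right), with coloured points for libraries, black bars for the mean ± SD of 3 and axes that start at 0. The ratio is 0.781 to 0.814 in the homozygous and 0.619 to 0.654 in the control libraries, while the long form overlaps between genotypes.

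RefSeq lists 5 of the 70 member transcripts as non-coding forms, 1 each of Srsf3, Srsf7, Srsf9, Hnrnpa1 and Hnrnpa2b1. For Srsf3, the ratio of the non-coding form to the leading one was 0.840 ± 0.00114 in homozygous, 0.840 ± 0.000629 in heterozygous and 0.841 ± 0.000768 in control cortex (SD, n = 3 each). For Srsf7, whose gene level fell, it was 0.770 ± 0.00341 in homozygous, 0.771 ± 0.00601 in heterozygous and 0.775 ± 0.00353 in control cortex, with a 95% interval of the log2 change against control from -0.02 to 0.01. The ratios of Srsf9 and Hnrnpa2b1 were not called either (log2 changes -0.02 and 0.01; limma adjusted p = 0.308 and 0.812), and in Hnrnpa1 the non-coding form is the leading one. In heterozygous against control cortex 0 of the 38 ratios and 0% of all 5428 were called by limma. Unadjusted, 11 of the 38 and 440 of the 5428 had a limma p below 0.05. The 38 are not independent, since forms of 1 gene share a leading transcript and reads. Among the 11 were forms of Hnrnpc, at log2 changes of at most 0.0087 in size, and the short forms of Srsf10. In homozygous against heterozygous cortex 5 of the 38 were called, against 8.36% of all ratios, and the 2 of Srsf10 were by at least 0.25 on the log2 scale, against 1.69%. The count of 5 was 3 under quantile normalization, with sex in the model, with the 2 groups alone or without any 1 of several libraries.

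Promoters were compared as a feature that the naming rule does not use. RefSeq promoters (GRCm38.p6, 250 bases before to 50 after the first listed start) were matched for 30 member genes. A GC box, GGGCGG on either strand, was found in 23 of the 30, against 35.9% of the 27025 promoters in the table. The CCAAT box was found in 17, against 37.9% of all, the ETS core CCGGAAG in 6, against 9.12%, and the TATA box letters TATAAA in 5, against 14.2%. All members passed the filter on level, whereas the 27025 promoters were taken whatever the level of their gene. The promoters of the tested genes alone were not compared. A match is a run of letters and not a shown binding site. The promoters of Srsf4, the member that fell most, at chr4:131873387-131873686, and of Srsf6, the SR gene that rose most, at chr2:162931258-162931557 (both plus strand), are shown side by side, with GC boxes in capitals.
Srsf4: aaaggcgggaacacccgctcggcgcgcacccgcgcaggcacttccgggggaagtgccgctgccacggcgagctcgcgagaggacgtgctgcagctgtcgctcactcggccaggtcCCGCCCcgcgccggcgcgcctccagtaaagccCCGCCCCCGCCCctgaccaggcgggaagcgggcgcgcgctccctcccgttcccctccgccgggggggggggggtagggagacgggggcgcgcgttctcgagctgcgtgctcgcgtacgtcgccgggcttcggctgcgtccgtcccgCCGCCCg
Srsf6: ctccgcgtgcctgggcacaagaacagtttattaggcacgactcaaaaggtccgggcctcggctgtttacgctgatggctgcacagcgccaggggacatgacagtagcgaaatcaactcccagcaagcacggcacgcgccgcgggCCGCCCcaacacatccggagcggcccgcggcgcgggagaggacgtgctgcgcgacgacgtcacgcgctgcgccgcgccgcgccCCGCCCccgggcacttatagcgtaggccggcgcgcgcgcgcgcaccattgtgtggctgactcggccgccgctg
The Srsf4 window holds 4 GC boxes at a GC content of 77.7% and 49 CpG pairs, and the Srsf6 window 2 GC boxes at 70.0% and 45 CpG pairs. The Srsf4 window holds 1 ETS core and the Srsf6 window 0. Neither holds the CCAAT box or the TATA letters, and these matches say nothing of which factors bind there. Srsf4 has 3 listed starts and Srsf6 has 1, and only the window of the first is shown.

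The DBHS relatives of Sfpq were read beside the members. Pspc1 was at 262 ± 11.1 RPKM in homozygous, 133 ± 8.26 in heterozygous and 102 ± 1.59 in control cortex (SD, n = 3 each; log2 change against control 1.36 ± 0.05 SE, limma adjusted p = 3.17e-08), and Nono was not called (log2 change 0.05). Of 18 other splicing proteins with RS domains 3 were called higher and 4 lower in homozygous against control cortex. Among all genes tested 14.4% were called higher and 19.9% lower. The median log2 change of the 18 was -0.07. Larger changes than in most members were seen there in paralogs that went opposite ways. Luc7l2, a U1 snRNP associated protein, was at 20.5, 21.3 and 20.1 RPKM in homozygous against 46.1, 51.6 and 50.5 RPKM in control libraries (log2 change -1.24; limma adjusted p = 4.60e-08), and its paralog Luc7l at 79.8, 72.0 and 85.2 RPKM in homozygous against 42.3, 42.3 and 43.3 RPKM in control libraries (log2 change 0.88; limma adjusted p = 1.53e-06). A further Luc7l paralog in the list was not called (log2 change -0.08, limma adjusted p = 0.550). Tra2b, an activator of exons that acts with SR proteins, fell by 0.50 on the log2 scale (limma adjusted p = 4.93e-05).

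Of 15 tested kinases, phosphatases and import receptors of SR proteins 3 were called, against 34.3% of all genes tested. The median log2 change of the 15 was -0.02, and all 3 called were lower (limma). These were the kinases Clk3 and Srpk2, with a log2 change of -0.36 each, and the phosphatase subunit Ppp1cc, with -0.19. Of 25 hnRNP-like proteins with other symbols 1 was called higher and 6 lower, against 14.4% and 19.9% of all genes tested. The median of the 25 was -0.06. The nuclear matrix protein Matr3 rose by 0.58 on the log2 scale. Pcbp3, a binder of cytosine-rich RNA, fell by 0.97 and the neuronal splicing regulator Ptbp2 fell by 0.39.

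Of 50 core spliceosome genes 7 were called higher and 7 lower, against 14.4% and 19.9% of all genes tested. The median of the 50 was 0.00, with log2 changes of -0.36 in Sf3b3, 0.30 in Prpf6 and 0.29 in Cdc5l. Of 17 genes of nonsense-mediated decay and the exon junction complex 3 were called higher and 2 lower, against the same shares of all genes. The median of the 17 was -0.06. Smg6, the endonuclease of the decay pathway, fell by 0.62 and Nbas by 0.61 on the log2 scale, and Smg8 rose by 0.24. In heterozygous against control cortex no gene of these lists was called, as none was among all genes.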

How the data were processed

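Per the labels' protocols, total RNA was column-purified, depleted of ribosomal RNA and made into strand-keeping libraries. The build mm9, TopHat 1.4.1 and CASAVA 1.8.2 are named per the submitters' processing notes. The authors deposited an RPKM value per RefSeq transcript and library. The sources used here give neither the program that made the values nor its use of strand or of reads that match several places, so values of paralogs and overlapping genes are uncertain. Of 30978 transcripts, 30507 were named from a RefSeq gene table and 178 from GENCODE M21. Depth was estimated from low values, since 68.5% to 72.2% of values worth fewer than 5 reads were within 0.1 of a whole number of reads, with lengths from another annotation, so no count test was run.

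Members, gene lists and tests were chosen with earlier results of these data known. All members could be named, with Sfpq, Nono, Pspc1 and, of each list, up to 3 genes called in homozygous against control cortex, taken by lowest adjusted p. Lists of cell type markers and Mog served as a check of the labelled cells, and the values of 1 such list are not reported here. Log2(RPKM + 0.5) of all 9 libraries was fitted by genotype with limma 3.58.1 in R 4.3.3 (empirical Bayes with a mean-variance trend), over the 12159 genes whose mean reached 0.5 RPKM, and likewise over 5428 ratios of transcripts. Log2 changes on this scale understate those of low genes. Tests were two-sided, adjusted by Benjamini-Hochberg over all genes or ratios, and called below 0.05. All 3 comparisons share libraries. No 2 libraries of a group agreed closer than an SD of 0.148 of the log2 difference. On data simulated for homozygous against control cortex (10 runs, 200 of 12159 genes changed), 78.6% of changes of 0.5 and 97.7% of changes of 1 on the log2 scale were found, with 5.30% of calls false. For ratios, simulated likewise over 5428, these were 98.7%, 100% and 6.99%. In the data 34.3% of genes were called, and the called members other than Srsf4 changed by 0.17 to 0.32. Called ratios of members outside Srsf10 changed by 0.02 to 0.05. The simulation covered neither changes so small nor so many, so its shares do not describe those calls. Alternatives changed the pseudocount, the filter, the normalization, the libraries, the covariates and the transcript that stands for a gene.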

Additional observations from a re-analysis of the deposited data

How the results depend on the processing

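Recomputed under the alternatives, the log2 changes of members and of their ratios (3660 values) lost 58 calls and gained 23 in the same direction. Sign changes were seen in 175 values not called in either fit, 106 of them with a single library left out. All of these values were at most 0.0846 in size as reported. No value called as reported changed sign. Srsf10 as a gene changed sign and was called when read from its longest transcript: 0.30 on the log2 scale against control and 0.19 against heterozygous cortex (limma adjusted p = 0.0446). Among all genes, heterozygous against control cortex had 1 call without the filter, 1 with the 2 groups alone and 0 to 1 when single libraries were left out. Left out 1 at a time, libraries moved the members called to 10 to 15 (homozygous against control) and 7 to 13 (homozygous against heterozygous), and the ratios called to 5 to 8 and 3 to 5. The ratios against heterozygous cortex were 3 under quantile normalization, 3 with the 2 groups alone and 3 with sex in the model. Quantile normalization split the calls of members as 4 higher and 7 lower against control, and those of all genes against heterozygous cortex as 2429 higher and 2099 lower (1771 and 2221 as reported).

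Replicate numbers were not used as pairs in the fit reported. Same-numbered libraries of different groups had correlations of their deviations from -0.044 to 0.404 (median 0.038). Different-numbered ones ran from -0.44 to 0.096 (median -0.0305). The highest were 0.404 for homozygous and control replicate 1 and 0.322 for homozygous and control replicate 3. Whether the numbers mark pairs was not tested. With the replicate number as a block 3 members were called higher and 11 lower against control, and 4 and 8 against heterozygous cortex. Of all 12159 genes this fit called 1897 higher and 2532 lower against control. The files hold no counts, so precision rests on the spread of 3 libraries per group.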
